A study of Rattus norvegicus with 12 samples.

Results

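Glutamate receptors and the scaffold proteins that anchor them under the synapse were compared in the forebrain of rats that stayed in standard laboratory housing (control) and of rats placed for 3 hours in an unfamiliar environment with objects that differed in shape and colour (exposed). Members were the genes whose symbol in the array annotation is Gria, Grin, Grik, Grid, Grm, Dlg, Dlgap or Shank followed by a number and, in some, a letter. They numbered 37 of 14217 genes and had 66 of 31042 probe sets. Each gene was represented by its probe set with the highest mean over 12 arrays, its brightest. All animals were male Long Evans rats, 6 weeks old and housed singly for several days beforehand, with 6 animals per group and 1 Affymetrix array of forebrain total RNA per animal. The labels number the animals separately in each group. Intensities are in the deposited linear units, and changes are exposed minus control on the log2 scale with the standard error (SE) of a limma fit. The 12 arrays, 6 per group, limit the precision of every value. In RNA of a whole forebrain, fewer cells of a type and less RNA per cell cannot be told apart.

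Glutamate is the main excitatory transmitter of the forebrain. AMPA receptors (Gria) carry most of the fast current, NMDA receptors (Grin) admit calcium and trigger synaptic plasticity, and kainate receptors (Grik) modulate transmission on either side of the synapse. Metabotropic receptors (Grm) signal through G proteins. The MAGUK proteins (Dlg) hold receptors at the membrane, Dlgap proteins bind the MAGUKs, and Shank proteins link that complex to Homer and the actin cytoskeleton.

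Of the 37 genes, 0 passed the test after 3 hours in the unfamiliar environment, and Dlgap4 came closest to it. At a Benjamini-Hochberg adjusted p under 0.05 over all probe sets in limma, 0 members were higher and 0 were lower, where 3.46% of all genes passed (2.62% higher, 0.844% lower). At an unadjusted p under 0.05 there were 2 members, Dlgap4 and Dlg5, both higher, against a background of 15.9% of genes. With so few members, 0 calls lie near the background share and do not show that the genes were unchanged. In 0 members did all 6 exposed animals lie above every control (2.50% of genes did), and in 0 did all 6 lie below (0.879%).

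The log2 changes ran from -0.21 for Gria1 to 0.19 for Dlgap4. Of the 37, 33 genes were above the floor on every array (the floor is an intensity of 53.8, the 20th percentile of all values). The median change of these 33 was -0.03, beside -0.01 for the 12057 genes of the table that were never at the floor. For 31 of the 33, the 95% interval of the change lay within 1.5-fold in either direction. The interval of Grm2 reached beyond 1.5-fold on both sides and that of Gria1 on the lower side, so changes of that size were not excluded for these genes. This count covers the brightest probe sets only. At another probe set of Grin2a the interval ran from 0.613-fold to 1.08-fold, also beyond 1.5-fold on the lower side. In Grid1, Grik3 and Grin3b the probe set was at the floor on 3, 1 and 9 arrays, and in Grm6, a receptor known from retinal bipolar cells, on all 12.

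**Figure D1:**
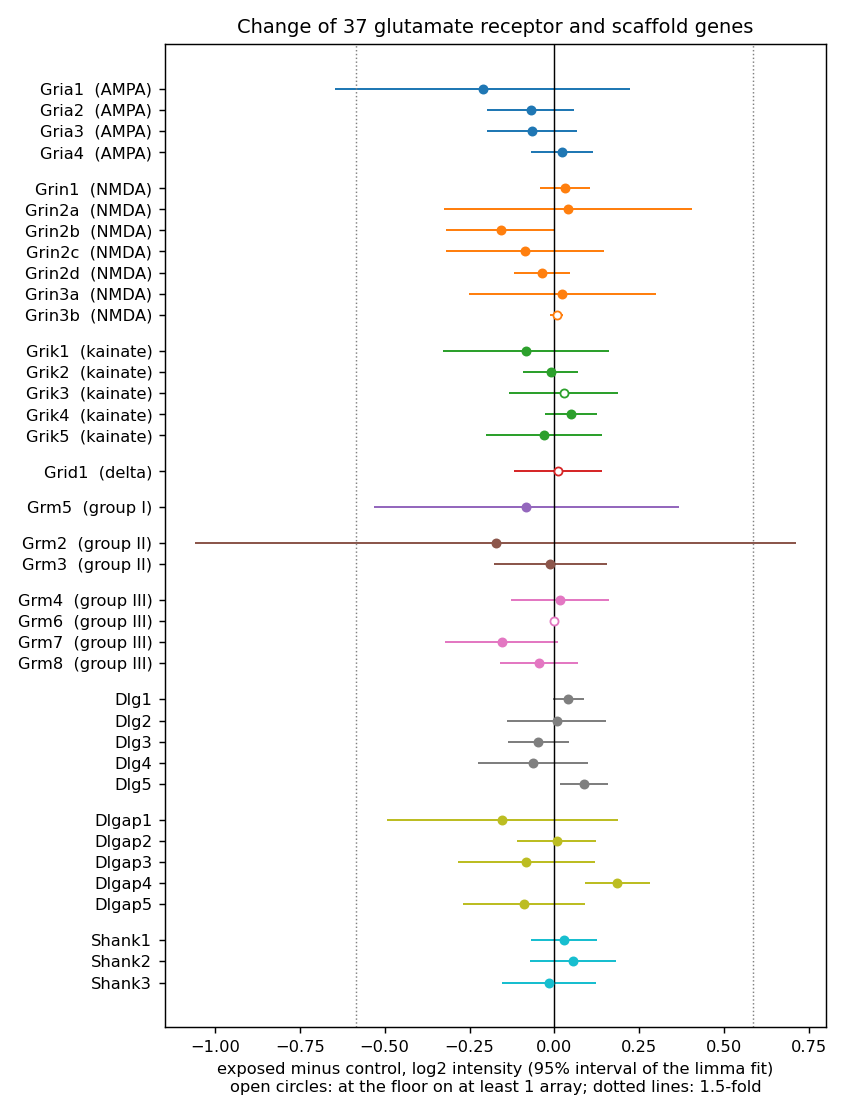
Change of each of the 37 genes between exposed and control animals on the log2 scale (x axis), by subfamily, with the 95% interval of the limma fit as a bar. All points lie between -0.21 and 0.19, and only the intervals of Gria1 and Grm2 cross the dotted lines at 1.5-fold; the open circles mark genes at the floor on at least 1 array, whose intervals are not read.

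Array medians ran from 235 to 245 in intensity. Forebrain markers were measured well above the floor, and the mean log2 level of 8 neuron markers lay between 12.63 and 12.68 in control animals and between 12.59 and 12.72 in exposed animals. The means of 10 marker lists of cell types and forebrain or neighbouring regions differed by -0.09 to 0.07 between the groups. The lowest was that of 8 endothelial markers, which ran from 9.21 to 9.31 in control and from 9.14 to 9.24 in exposed animals, with Slco1a4, an organic anion transporter, the only one of them that passed (lower). Next came 7 markers of cortex and hippocampus, from 10.48 to 10.65 in control and from 10.40 to 10.55 in exposed animals. The part of these shifts in the members' values was not tested. Of the cerebellar markers, Gabra6, which defines granule cells, was at the floor on 9 of 12 arrays, with a highest value of 122 in control and 94.1 in exposed animals. The mean of 7 cerebellar markers ran from 7.75 to 8.32 in control and from 7.78 to 8.22 in exposed animals. It was highest in control animal 2 (8.32), exposed animal 6 (8.22) and exposed animal 3 (8.13), and at most 7.94 in each other animal. The part of cerebellar tissue in the members' values was not tested. The mean of 5 olfactory bulb and neuroblast markers was 8.05 in control animal 4 and between 7.09 and 7.42 in the other 11. A sign of RNA quality, the 3 prime minus 5 prime difference of control probe sets, was 0.39 ± 0.05 in control and 0.45 ± 0.07 in exposed animals on the log2 scale (SD, n = 6, exact two-sided permutation p = 0.0823). Exposed animal 5 stood apart: 357 of the 23880 probe sets never at the floor lay more than 0.5 below their group mean on the log2 scale, against 29 to 113 in the other 11 animals. The change without exposed animal 5 is also given for members in which it lay far below its group at the brightest probe set. It is given as well for Grm5, where this animal was the highest exposed one, and for dimmer probe sets of Gria3, Grin1 and Grin2a.

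Among the AMPA receptor subunits, 0 of 4 passed in limma. Gria2 codes for the subunit whose edited form keeps the channel closed to calcium. Its intensity ran from 7721 to 8318 in control animals (median 7900) and from 6257 to 8219 in exposed animals (median 7821). The groups overlapped, with exposed animal 5 the lowest of the 12, and the change was -0.07 ± 0.06 (adjusted p = 0.765) with it and -0.02 (adjusted p = 1.00) without it. The dimmer of the 2 Gria2 probe sets had a change of -0.09 ± 0.03 with an unadjusted limma p of 0.0141 and an adjusted p of 0.196. Gria1 codes for the subunit that is added to synapses during plasticity. Its control animals lay between 914 and 1097 (median 1037) and its exposed animals between 447 and 1083 (median 1008). The value of 447 belongs to exposed animal 5, and the next lowest exposed animal was at 903. The change of Gria1 was -0.21 ± 0.20 (adjusted p = 0.813) with 12 animals and -0.01 (adjusted p = 1.00) without exposed animal 5. Gria3 and Gria4, the other pore-forming subunits, changed by -0.07 and 0.02 at their brightest probe sets. At the dimmer Gria3 probe set the change was -0.12 with 12 animals and -0.02 without exposed animal 5.

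Among the NMDA receptor subunits, 0 of 7 passed. Grin1, the obligatory subunit of the receptor, lay between 3289 and 3567 in control animals (median 3489) and between 3244 and 3761 in exposed animals (median 3575). The groups overlapped, and the change of 0.03 ± 0.03 (adjusted p = 0.864) had a 95% interval from 0.970-fold to 1.08-fold. A dimmer Grin1 probe set read 463 ± 25.5 in control and 415 ± 28.6 in exposed animals (SD, n = 6). In it 5 of 6 exposed animals lay below every control, and the change was -0.16 ± 0.05 (limma adjusted p = 0.151). Without exposed animal 5, whose value was the exposed one inside the control range, the change at this probe set was -0.20 ± 0.04 and passed (adjusted p = 0.0343), with 5 of 5 below every control. It did not pass in the fits that left out any of the other 11 animals, and over all 12 such fits the adjusted p ran from 0.0343 to 0.276. The difference between both Grin1 probe sets was -0.19 ± 0.05 and did not pass (adjusted p = 0.122 over 6455 pairs of probe sets of the same gene).

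Grin2b and Grin2a code for the glutamate-binding subunits that set the kinetics of forebrain NMDA receptors. Grin2b ran from 524 to 709 in control animals (median 659) and from 541 to 648 in exposed animals (median 575). The exposed animals lay within the control range. Control animal 6 was the lowest at 524, and the other controls lay between 637 and 709. The Grin2b change of -0.16 ± 0.07 did not pass (limma adjusted p = 0.387). It passed in 0 of the 12 fits that left out 1 animal, with adjusted p from 0.0521 to 0.551. At a dimmer probe set of Grin2b the change was 0.11 ± 0.12. Grin2a ran from 1570 to 2302 in control animals (median 1827) and from 1174 to 2383 in exposed animals (median 2016). Exposed animal 5 was again the lowest, and the change was 0.04 ± 0.17 with it and 0.18 without it (adjusted p = 1.00 and 0.572). At a dimmer Grin2a probe set 5 of 6 exposed animals lay below every control, with a change of -0.30 ± 0.18 (adjusted p = 0.587), which was -0.13 ± 0.09 without exposed animal 5 (adjusted p = 0.654). Grin2c, Grin2d and Grin3a had changes of -0.09, -0.04 and 0.02.

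Among the kainate receptor subunits, 0 of 5 passed. Grik5, a high-affinity subunit that forms channels only with Grik1, Grik2 or Grik3, lay between 1165 and 1307 in control and between 1012 and 1440 in exposed animals (medians 1250 and 1185). The change was -0.03 ± 0.08 (adjusted p = 1.00), and exposed animals lay both above and below the control range. Grik4, the other high-affinity subunit, lay between 367 and 418 in control animals (median 401) and between 388 and 433 in exposed animals (median 413). Its groups overlapped, with a change of 0.05 ± 0.03 (adjusted p = 0.682). Grik1 and Grik2 had changes of -0.08 and -0.01, and that of Grik1 was 0.01 without exposed animal 5. Grid1, a delta receptor that binds cerebellins and D-serine rather than glutamate, lay between 53.3 and 61.7 in control animals and between 49.96 and 68.7 in exposed animals (medians 56.7 and 56.3). These values are next to the floor, and the change was 0.01 ± 0.06 (adjusted p = 1.00).

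Metabotropic receptors fall into group I, which couples to phospholipase C, and groups II and III, which lower cyclic AMP. Of 7 genes, 0 passed. Grm5, of group I, ran from 475 to 1132 in control animals (median 755) and from 549 to 922 in exposed animals (median 714), with a change of -0.08 ± 0.20 (adjusted p = 1.00). Without exposed animal 5, here the highest of its group, the change was -0.16 (adjusted p = 0.932). The exposed values all lay within the control range. Grm2, of group II, ran from 266 to 814 in control animals (median 570) and from 223 to 835 in exposed animals (median 485). Low and high animals occurred in both groups, and the change of -0.17 ± 0.40 (adjusted p = 1.00) had an interval from 0.480-fold to 1.64-fold. Grm3, also of group II and made by astrocytes as well as neurons, lay between 2737 and 3468 in control animals and between 2621 and 3434 in exposed animals (change -0.01 ± 0.08, adjusted p = 1.00). Without exposed animal 5 the change of Grm3 was 0.04 (adjusted p = 0.928). Of group III, Grm7, a presynaptic receptor of low glutamate affinity, lay between 429 and 532 in control and between 381 and 488 in exposed animals (medians 497 and 456). In it 2 of 6 exposed animals lay below every control, and the change was -0.16 ± 0.08 (adjusted p = 0.427). Grm8, another presynaptic receptor of group III, lay between 509 and 629 in control and between 497 and 575 in exposed animals (medians 546 and 535). Its groups overlapped, with a change of -0.05 ± 0.05 (adjusted p = 0.884), and that of Grm4 was 0.02.

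The spread between animals of the same group was wide for some receptors. The pooled SD within groups, on the log2 scale, was 0.72 for Grm2, larger than that of 99.9% of the genes never at the floor. It was 0.37 for Grm5, 0.35 for Gria1, 0.30 for Grin2a and 0.28 for Dlgap1, each above the values of 98% of those genes. In Gria1 the SD was 0.10 in control and 0.49 in exposed animals, and in Dlgap1 it was 0.08 and 0.38. Exposed animal 5 was the lowest in both genes, at -0.99 and -0.78 from its group mean. The median over the 37 members was 0.11, beside 0.08 over all 14217 genes. The 14217 include 1543 genes at the floor on every array, whose SD is 0 for that reason, and 617 at the floor on some arrays. Among the members these numbers were 1 and 3. For Grm2, control animals 1 and 5 and exposed animals 1 and 3 lay between 223 and 310, while the other 8 lay between 463 and 835. Over the 12 animals the mean of 7 cortex and hippocampus markers departed from its group mean by at most 0.11 on the log2 scale, and that of 8 striatum markers by at most 0.08. The mean of 6 thalamus markers departed by at most 0.09. That of 7 cerebellar markers departed further, by up to 0.43 (control animal 2). For 5 olfactory bulb and neuroblast markers the largest departure was 0.72 (control animal 4). The part of regional makeup in the spread of Grm2 was not tested.

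**Figure D2:**
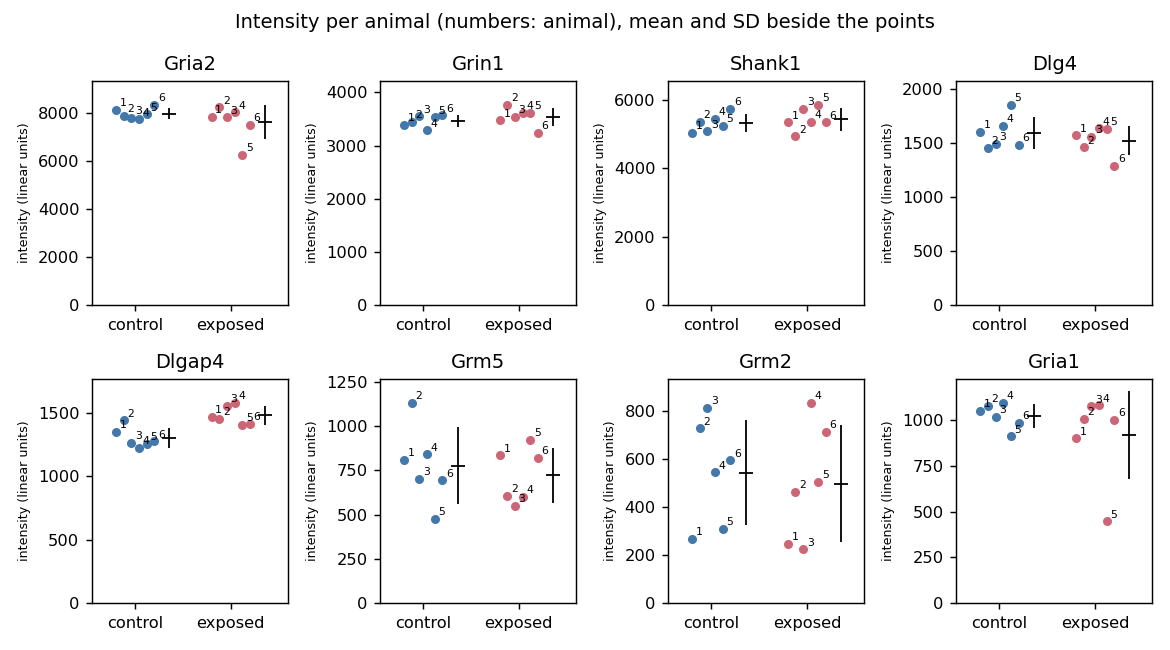
Intensity in linear units (y axis) of 8 genes in 6 control and 6 exposed animals, each point 1 animal with its number, and the mean with the SD as a bar beside the points. Grin1 and Shank1 stay close together in both groups, Gria2 and Dlg4 each have 1 exposed animal below the others, Dlgap4 lies higher in exposed animals with some overlap, Grm5 and Grm2 vary widely in both groups, and Gria1 has exposed animal 5 alone at 447.

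The wide spread of Grm5 was shared by both of its probe sets. Control animal 2 was the highest control at either probe set, at 0.59 and 0.37 above the group mean on the log2 scale, and control animal 5 the lowest, at -0.66 and -0.35. Exposed animal 5 was the highest exposed animal at both, at 0.38 and 0.44, and exposed animal 3 the lowest, at -0.37 and -0.43. The low values of exposed animal 5 were shared by all probe sets of Grin2a, where it lay at -0.70, -0.86 and -0.19, but not by those of Dlgap1, Gria2 and Gria3. At the brightest Dlgap1 probe set this animal lay at -0.78, but at the other 3 Dlgap1 probe sets it lay at 0.25, 0.08 and 0.25. For Gria2 it lay at -0.28 and 0.06, and for Gria3 at 0.11 at the brightest and -0.52 at the dimmer probe set. Of the 59 member probe sets never at the floor, 5 lay more than 0.5 below the group mean in exposed animal 5, against 0 to 2 in each other animal. What set these probe sets apart was not tested.

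**Figure D3:**
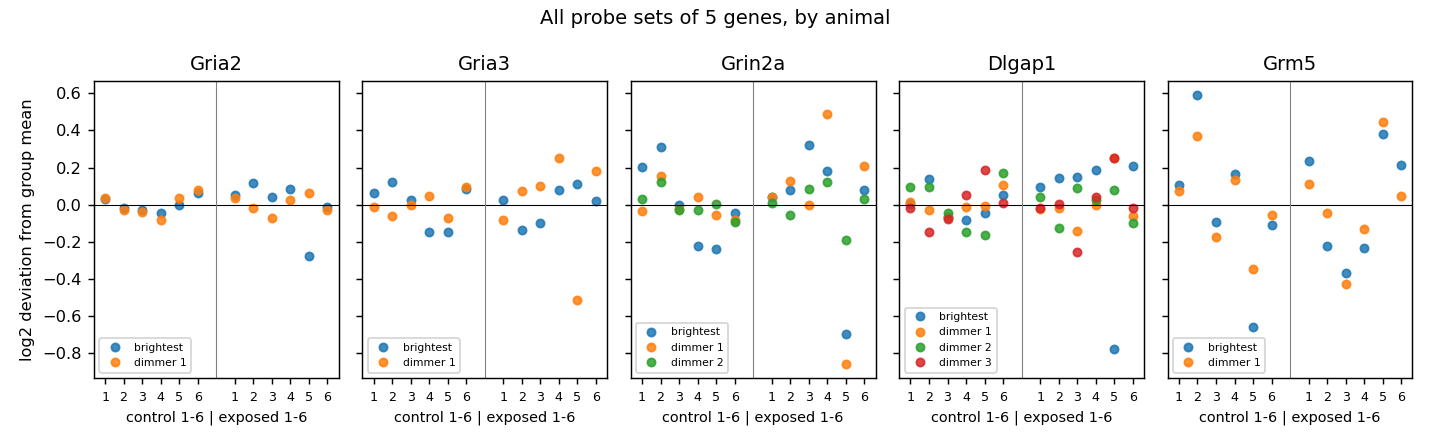
Deviation of each animal from its group mean on the log2 scale (y axis) for all probe sets of Gria2, Gria3, Grin2a, Dlgap1 and Grm5, with control animals 1 to 6 and then exposed animals 1 to 6 on the x axis. Points of the 2 Grm5 probe sets lie near each other in most animals, while in exposed animal 5 the brightest Dlgap1 probe set lies at -0.78 and the 3 dimmer ones lie above 0.

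Among the MAGUK genes, 0 of 5 Dlg genes passed. Dlg4 codes for PSD-95, the most studied scaffold of the excitatory synapse. It lay between 1457 and 1851 in control animals (median 1550) and between 1287 and 1635 in exposed animals (median 1564), and the change was -0.06 ± 0.07 (adjusted p = 0.889). Dlg1, which codes for SAP97, read 2442 ± 31.0 in control and 2513 ± 86.0 in exposed animals (SD, n = 6), with a change of 0.04 ± 0.02 (adjusted p = 0.465). Dlg5, a larger relative known from cell junctions, lay between 626 and 706 in control animals (median 658) and between 682 and 742 in exposed animals (median 696). In it 2 of 6 exposed animals lay above every control, and the change of 0.09 ± 0.03 did not pass (adjusted p = 0.236). Dlg3, which codes for SAP102, had a change of -0.05 at its brightest probe set and of -0.12, -0.11 and -0.22 at the other 3. The latter 2 had an unadjusted limma p of 0.0287 and 0.0197, with adjusted p = 0.286 and 0.235. Dlg2, which codes for PSD-93, had a change of 0.01.

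Dlgap4, which codes for the PSD-95 binding protein SAPAP4, came closest to the threshold. Control animals lay between 1228 and 1442 (median 1271) and exposed animals between 1409 and 1582 (median 1463). In Dlgap4, 4 of 6 exposed animals lay above every control, and the overlap came from control animal 2, the highest control. The change of 0.19 ± 0.04 (1.14-fold, 95% interval 1.06-fold to 1.22-fold) had an adjusted p of 0.0548 in limma. Without control animal 2 the change of Dlgap4 was 0.22 (adjusted p = 0.0168). It also passed with dim probe sets left out, with animals numbered 1 to 3 and 4 to 6 as a term, and over genes rather than probe sets, 5 of 27 alternatives in all. Dlgap4 has 1 probe set. With dim probe sets left out and over genes its values and its change of 0.19 stayed the same, and the adjustment ran over fewer tests. With RNA quality as a covariate the change was 0.14 (adjusted p = 0.199). Dlgap1, which codes for the PSD-95 binding protein SAPAP1, lay between 3562 and 4151 in control animals (median 3722) and between 1975 and 3917 in exposed animals (median 3755). Exposed animal 5 alone lay below the control range, and the change was -0.15 ± 0.15 (adjusted p = 0.832) with it and 0.00 (adjusted p = 1.00) without it. Dlgap2, Dlgap3 and Dlgap5 had changes of 0.01, -0.08 and -0.09.

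Among the Shank genes, 0 of 3 passed. Shank1 lay between 5044 and 5735 in control animals and between 4933 and 5848 in exposed animals (medians 5307 and 5353), with a change of 0.03 ± 0.04 (adjusted p = 0.992). Shank2 lay between 2014 and 2189 in control and between 1900 and 2432 in exposed animals (medians 2155 and 2252). In Shank2, 4 of 6 exposed animals lay above every control and 1 below, and the change was 0.05 ± 0.06 (adjusted p = 0.845). Shank3 read 2447 ± 68.5 and 2432 ± 246 (SD, n = 6), with a change of -0.02 ± 0.06 (adjusted p = 1.00).

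Of the 66 member probe sets, 0 passed with all 12 animals, where 2.56% of all probe sets did (1.97% higher, 0.599% lower). In 0 of the 66 did all exposed animals lie above every control (1.94% of all) or below (0.702% of all). An unadjusted limma p under 0.05 was reached by 6 of them, against 13.2% of all: those of Dlg5 and Dlgap4 were higher, and dimmer probe sets of Grin1, Gria2 and Dlg3 (2 probe sets) were lower. In 27 pairs a dimmer probe set was set against the brightest of its gene, and 0 pairs differed between the groups, where 0.945% of the 6455 pairs of the table did. An unadjusted p under 0.05 was reached by 6 of the 27 pairs (22.2%), from 6 genes, against 9.08% of all pairs. These were pairs of Grin1, Grin2a, Grin2b, Dlg3, Shank1 and Shank2, with adjusted p from 0.122 to 0.547. Probe sets of 1 gene can read different transcript forms or ends, and the probe sequences were not used here.

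Promoter sequence from RefSeq (build GRCr8, 250 bases before to 50 after the gene start) was matched for 23 of the 37 members. No promoter was searched for Gria1, Gria2, Gria3, Grin2a, Grin2b, Grin3b, Grid1, Grm2, Grm3, Grm4, Dlg3, Dlgap2, Shank1 and Shank2. The search covered, on both strands, letters for sites of CREB (TGACGTCA), of AP-1, the Fos and Jun dimer (TGANTCA), and of Egr proteins (GCGTGGGCG). These factors are known to act when neurons fire. N stands for any base, so the AP-1 letters were searched loosely. The CREB site was in 0 of 23 member promoters and in 1.83% of all 33469 promoters, and the Egr site in 0 of 23 and in 0.544% of all. The AP-1 site was in 1 of 23, that of Dlgap1, and in 7.33% of all. The GC box, a site of Sp1 (GGGCGG), was in 8 of 23 (34.8%) and in 33.1% of all. The TATA box (TATAAA) was in 0 of 23 and in 14.2% of all. The median GC content was 59.7% for the members and 51.7% for all promoters. Each member was read at 1 promoter, while the 33469 were not limited to the 14217 genes measured on the array. These are matches of letters in a window and not measured binding. The stretch with the AP-1 letters (capitals) in Dlgap1 on the plus strand of chr9:117614001-117614047 is shown because it is the single match among sites of activity-regulated factors, and the whole Dlgap4 promoter on the plus strand of chr3:165584110-165584409, with 2 GC boxes read on the opposite strand in capitals, because Dlgap4 had the smallest p of the members.
Dlgap1: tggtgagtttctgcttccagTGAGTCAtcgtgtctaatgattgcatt
Dlgap4: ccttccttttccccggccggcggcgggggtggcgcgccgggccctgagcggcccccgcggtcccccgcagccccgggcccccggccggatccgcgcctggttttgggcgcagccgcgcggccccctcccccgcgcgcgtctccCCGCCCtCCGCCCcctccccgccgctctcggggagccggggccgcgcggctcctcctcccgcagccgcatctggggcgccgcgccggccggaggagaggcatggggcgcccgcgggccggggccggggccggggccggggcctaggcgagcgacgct

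Other genes of the glutamate synapse were read from 5 lists, in which 102 of 121 genes were measured. Of the 102, 4 rose and 1 fell in limma, beside the 2.62% and 0.844% of all genes. Among other postsynaptic density proteins 3 of 33 rose and 1 fell. Arc, an immediate early gene whose protein drives removal of AMPA receptors, went from 518 to 960 in control animals (median 590) to 2958 to 4708 in exposed animals (median 3683), a change of 2.57 ± 0.16 (adjusted p = 1.91e-05) without overlap. Tamalin, a scaffold that binds group I metabotropic receptors, lay between 223 and 258 in control animals (median 245) and between 285 and 352 in exposed animals (median 328). The groups did not overlap, and Tamalin rose by 0.41 ± 0.06 (1.33-fold, adjusted p = 0.00324), a call kept in 27 of 27 alternatives. Homer1, which links group I receptors to Shank, ran from 2974 to 3424 and from 3336 to 3925 (change 0.21 ± 0.04, adjusted p = 0.0262). The call of Homer1 was lost with 8 of the 12 animals left out in turn, all but control animals 1 and 3 and exposed animals 5 and 6 (adjusted p up to 0.0592). It was also lost with RNA quality as a covariate (adjusted p = 0.107). In all, the call of Homer1 was kept in 17 of 27 alternatives, with a change above 0 in all 27. The largest change, 0.98, came with the mean over all Homer1 probe sets, so its other probe sets rose more on average than its brightest.

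Plekha5, of the same list, lay between 1017 and 1081 in control animals and between 907 and 1013 in exposed animals. It fell by 0.13 on the log2 scale (SE 0.03, adjusted p = 0.0483), with 6 of 6 exposed animals below every control. The call of Plekha5 was lost in 11 of the 12 fits with 1 animal left out, all but that without exposed animal 4 (adjusted p up to 0.107), and with RNA quality as a covariate (0.181). Baiap2, which codes for the Shank-binding protein IRSp53, had 6 of 6 exposed animals above every control and did not pass (change 0.19 ± 0.06, adjusted p = 0.180).

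Among auxiliary subunits of AMPA and kainate receptors, 0 of 16 passed, with 1 at an unadjusted limma p under 0.05, against 15.9% of all genes. Cacng2, which codes for stargazin, a protein that brings AMPA receptors to the synapse, lay between 690 and 799 in control animals (median 764) and between 789 and 1211 in exposed animals (median 913). In Cacng2, 5 of 6 exposed animals lay above every control, and the change of 0.31 ± 0.08 did not pass (adjusted p = 0.10). It passed without exposed animal 5 (0.23, adjusted p = 0.0441) and without exposed animal 6 (0.36, adjusted p = 0.0458). Among NMDA receptor kinases and phosphatases 1 of 16 rose: Ptpn11, which codes for the tyrosine phosphatase SHP2, by 0.08 ± 0.02 (adjusted p = 0.0280). The call of Ptpn11 was lost with 9 of the 12 animals left out in turn, all but control animal 2 and exposed animals 3 and 4 (adjusted p up to 0.0645), and the mean over its probe sets was 0.00 (adjusted p = 1.00). Among synaptic adhesion genes 0 of 21 passed (2 at an unadjusted limma p under 0.05, against 15.9% of all genes). The smallest p was that of Epha4, a receptor of ephrins (change -0.13 ± 0.04, adjusted p = 0.183). Among genes of glutamate transport and metabolism 0 of 16 passed (5 at an unadjusted limma p under 0.05, against the same 15.9%). The smallest p was that of Slc38a2, a glutamine transporter (change 0.14 ± 0.04, adjusted p = 0.137).

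**Figure D4:**
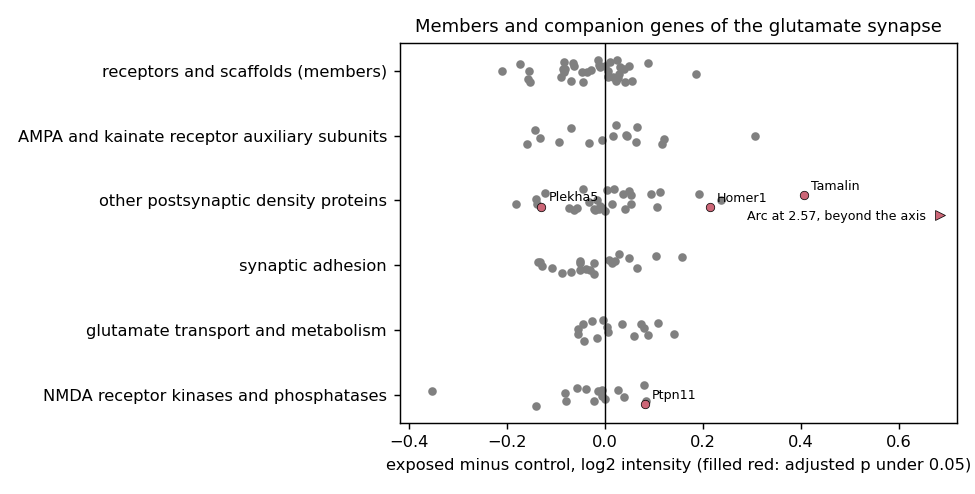
Change of single genes on the log2 scale (x axis) for the 37 receptor and scaffold genes and for 5 lists of other genes of the glutamate synapse, each point 1 gene and red where it passed. No member is red; Tamalin at 0.41, Homer1 at 0.21, Ptpn11 at 0.08 and Plekha5 at -0.13 are, and Arc at 2.57 lies beyond the axis.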

How the data were processed

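The deposited table holds intensities of 31042 probe sets and 57 array control probe sets on a linear scale, from 12.6 to 34828. Per the labels' protocols, forebrain RNA was extracted with Trizol, cleaned on RNeasy columns and labelled by the standard Affymetrix procedure. Background correction, probe summary and normalization are not given in the sources used here. Intensities were raised to the 20th percentile (53.8), taken to log2 and fitted with limma 3.58.1 in R 4.3.3 (lmFit, eBayes with a trend, group as the only term, all 12 arrays). The Benjamini-Hochberg adjustment ran over all 31042 probe sets, unfiltered. Gene names came from the array's annotation, for the 20832 probe sets it pairs with 1 symbol. Pairs of probe sets were fitted the same way without a trend, leaving out pairs at the floor on all arrays. Fits were tested on simulated data.

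The members and lists were chosen with earlier results of these data known. Named with full values were the brightest member and the member with the smallest p of each subfamily, the 4 largest changes in each direction, any gene that passed and, in each other list, the gene with the smallest p. Grin2a, Dlg4, Shank3, Baiap2 and the dimmer probe sets given were also described after their values were seen. The animal numbers pair different animals, and deviations of same-numbered animals correlated above 0.1 in 2 of 6 pairs, so the numbers were not used as a block. Alternatives covered normalization, filter, floor, the eBayes settings, covariates, probe set choice and single animals.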

Additional observations from a re-analysis of the deposited data

Results flagged for a closer look

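In 77 groups of 6 animals (37 members and 5 other genes, leaving out 7 groups with an animal at the floor), 11 had an animal whose gap to its nearest neighbour was large for the range of the group. Chance gives about 1 such group in 20. Exposed animal 5 was the lowest of its group at Dlgap1 (1975, nearest 3621), Gria1 (447, nearest 903), Gria2 (6257, nearest 7500), Grik1 (106, nearest 147), Grin2a (1174, nearest 1967) and Grm3 (2621, nearest 3185). Exposed animal 6 was the lowest at Dlgap3 (1103, nearest 1505) and Shank3 (1978, nearest 2422). Control animal 6 was the highest control at Dlgap3 (1735, nearest 1576) and the lowest at Grin2b (524, nearest 637). Exposed animal 3 was the highest at Grik3 (73.5, nearest 60.4), a gene near the floor. This animal also had the largest 3 prime minus 5 prime difference of control probe sets (0.59, against 0.33 to 0.44 in the others), and the part of RNA quality in this value was not tested.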

How the results depend on the processing

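Over 27 alternatives, 15 of one kind or another and 12 with 1 animal left out, the count of members that fell was 0 throughout. The count that rose was 0 in 22 and 1 in 5, Dlgap4 each time. Dlgap4 passed with the dimmest 40% of probe sets left out, with those never above the floor left out, and without control animal 2. It also passed with animals numbered 1 to 3 and 4 to 6 as a term and with a gene's probe sets averaged, though Dlgap4 has only 1. With 1 animal left out the counts ran from 0 to 1 for members higher and 0 to 0 for members lower, from 451 to 622 for all probe sets higher and 103 to 182 for those lower, and from 2 to 6 for companion genes higher and 0 to 1 for those lower. With the animal number as a replicate block, 359 probe sets were higher and 76 lower in place of 610 and 186, members stayed at 0 and 0, and 0 companion genes were lower. With RNA quality as a covariate 72 probe sets were lower, and 2 companion genes were higher and 0 lower. Without control animal 4 and exposed animals 3 and 5, 82 probe sets were lower. The count of lower companion genes was also 0 with either filter on dim probe sets, the floor at the 40th percentile, no trend, robust eBayes, striatum markers as a covariate, probe sets averaged per gene, and without those 3 animals. Ptpn11 reversed to -0.00299 with its probe sets averaged. The causes were not tested.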
